A study of Mus musculus with 17 samples.

Results

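These are 8239 BRG1 binding peaks of mouse spermatogenic cells that were listed at postnatal day 12 (P12), lay on acetylated chromatin and had no counterpart at postnatal day 18 (P18). A P12 peak on an autosome was included when it overlapped no P18 BRG1 peak and overlapped, by 1 bp or more, a common H3K27ac region. Common regions are those shared by testis cells of control and Brg1 knockout animals. They made up 44.9% of the 18336 autosomal peaks and came from a P12 list of 18630 peaks in all. BRG1 was precipitated from wild type CD1 testes, with 2 libraries at P12 and 2 at P18. H3K27ac was precipitated at P12 from animals of mixed background, with 2 Brg1WT libraries and 2 libraries of Brg1cKO, a conditional knockout made with Mvh-cre. The BRG1 and H3K27ac maps therefore come from different strains, and the H3K27ac regions are those of P12 alone. All cells were filtered suspensions of digested testes, and the labels' protocol names no sorting, so cells other than germ cells may be among them. Region lists hold no gene expression, and the cell type could not be checked against markers.

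BRG1 (Smarca4) is an ATPase of the SWI/SNF complexes, which use ATP to slide or evict nucleosomes. Acetylation of histone H3 at lysine 27 marks active promoters and enhancers, where it flanks or covers the DNA on which transcription factors and remodellers act. Mvh is a germ cell gene, and Cre driven by it deletes a floxed gene in germ cells and leaves other testis cells intact. In the first wave of spermatogenesis, early meiotic cells are among the most advanced germ cells at the earlier age, and pachytene spermatocytes have accumulated by the later one. The mix of cells thus changes between the ages, and fewer cells with BRG1 at a site cannot be told apart from less BRG1 per cell.

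Each age has 1 deposited BRG1 list with 1 value per peak and none per library, so no value below has an error between replicates, and the read depth behind them is unknown. Every P12 name carries the mark P12B1 and every P18 name the mark P18B2, and how the libraries were combined is not stated in the sources used here. Strengths, edges and midpoints may therefore be those of 1 library or of pieces left by combining them. Intervals are 95% intervals that cover counting error over regions. Regions of 1 list are not replicates, so the classes of peaks were described side by side and no difference between them was tested. The strength of a peak is the −log10 q of the authors' peak caller, in which a larger value is a more confident peak. Positions are in build mm9, counted from 1.

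The P18 list is far shorter than the P12 list, with 3020 peaks, so most P12 peaks could have no counterpart in it whatever their state at P18. Of the 18336 autosomal P12 peaks, 15428 (84.1%) overlapped no P18 peak, and among the 10789 on common H3K27ac the share was 76.4%. The peaks were chosen by these same lists, from measured overlaps with P18 BRG1 and common H3K27ac, so the values that come next describe the choice. The P12-only peaks on H3K27ac had a median −log10 q of 4.25 (4.18 to 4.30), with quartiles of 2.89 and 5.86. The 2550 peaks on H3K27ac that were present at both ages were stronger, with a median of 7.11 (6.99 to 7.21), and the 7189 P12-only peaks off H3K27ac were weaker, with a median of 3.15 (3.11 to 3.18). Widths followed the same order, at medians of 845 bp (828 to 860), 1301 bp (1272 to 1330) and 535 bp (522 to 549). The distributions overlapped widely: 1053 P12-only peaks on H3K27ac (12.8%, 12.1 to 13.5) were at or above the median strength of the peaks shared by both ages. Together the P12-only peaks on H3K27ac covered 8.37 Mb.

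**Figure D1:**
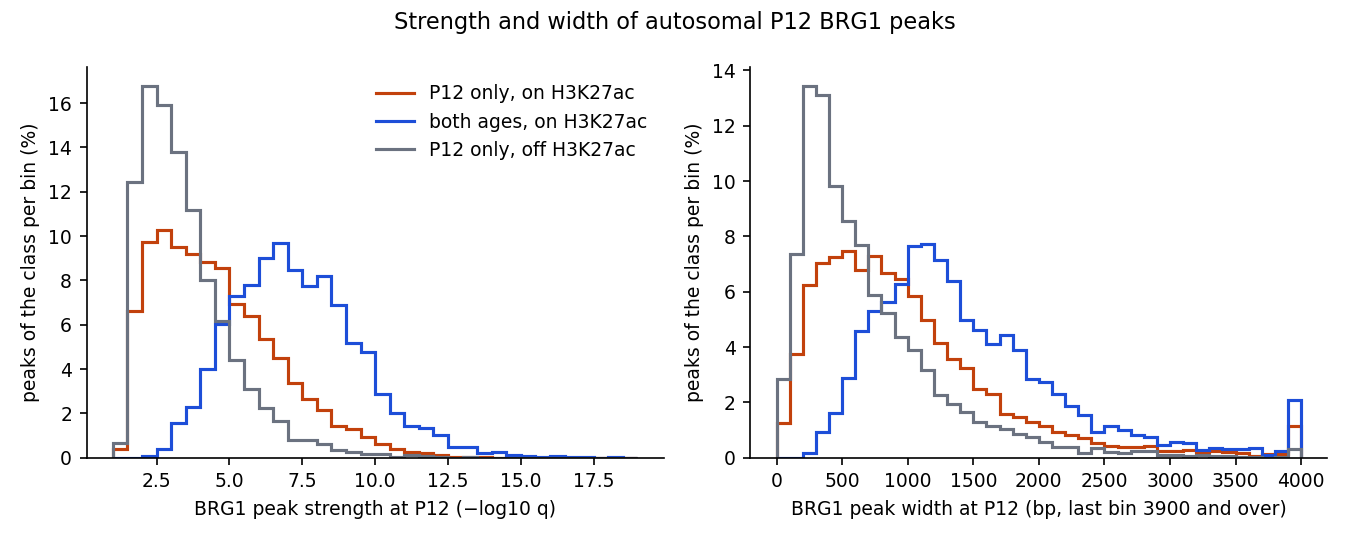
Share of peaks per bin of strength (left, −log10 q) and of width (right, bp, with all peaks of 3900 bp and over in the last bin) for 3 classes of autosomal P12 BRG1 peaks. The P12-only peaks on H3K27ac, with medians of 4.25 and 845 bp, lie between the peaks of both ages on H3K27ac and the P12-only peaks off H3K27ac, and overlap both.

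The included peaks nearest to a P18 peak were at chr15:77800778-77801772, 31 bp away with a −log10 q of 3.96, at chr13:12350105-12350402, 34 bp away at 5.81, and at chr4:57968487-57969473, 35 bp away at 5.99. Just outside the rule, the smallest overlaps with a P18 peak were 7, 8 and 12 bp, at peaks with a −log10 q of 9.80 on chromosome 12, 6.07 on chromosome 5 and 6.92 on chromosome 2. The peaks at chr5:37175596-37175599, chr6:71858589-71859431 and chr7:25739136-25740572 were included on 1 acetylated bp each. Their widths were 4, 843 and 1437 bp. Outside by the narrowest margin were peaks that abutted a common region with 0 bp between them, at chr4:106527532-106528721, chr8:23303295-23303845 and chr15:79757648-79758600.

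The 10 strongest P12-only peaks on H3K27ac were single compact sites, most of them on 1 acetylated region. Their −log10 q ran from 12.99 to 15.8 and their widths from 366 to 1012 bp. First was a 616 bp peak at chr15:66409143-66409758, with a −log10 q of 15.8. A common H3K27ac region covered 559 bp of it (90.7%), and the nearest P18 peak was 2579.6 kb away. Next came a 910 bp peak at chr18:34380399-34381308 (15.1), acetylated over 714 bp. The third, at chr10:52137103-52138097 (14.7), had an unacetylated midpoint with a region on each side, and no other acetylated base within 10 kb of either edge. It was the only one of the 10 with 2 acetylated regions.

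Of the remaining 7 strong sites, 5 had an acetylated midpoint. They were at chr2:83484460-83485239 (−log10 q 14.1), at chr9:104164643-104165653 (13.9) and chr9:59464938-59465679 (13.5), at chr17:44913790-44914801 (13.5), and at chr10:62706543-62707379 (12.99). The other two carried acetylation on 1 side of the midpoint. These were the 647 bp peak at chr2:104856843-104857489 (13.3), with 180 acetylated bp, and the 366 bp peak at chr12:72237231-72237596 (13.1), with 157. Distances of the 10 to the nearest P18 peak ranged from 35.2 to 2579.6 kb. The site at chr10:52137103-52138097 was the closest of them to one.

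Most P12-only peaks on H3K27ac met a single acetylated region. From here on, P12-only peaks are those on H3K27ac unless they are named as off H3K27ac. One common region was overlapped by 6154 peaks (74.7%, 73.7 to 75.6), 2 by 1645 (19.97%, 19.1 to 20.8) and 3 or more by 440 (5.34%, 4.86 to 5.85). The 10919 common regions at these peaks were 6.52% of all autosomal common regions. They had a median width of 368 bp (363 to 373), against 266 bp (265 to 266) for the common regions that touched no P12 peak and 422.5 bp (413 to 432) for those at peaks of both ages. A wider region meets a peak more easily, so the order of these widths is partly set by the overlap itself. Acetylation covered a median of 48.2% (47.4 to 49.2) of a peak's length. In 782 peaks (9.49%, 8.87 to 10.1) it covered the whole peak.

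The acetylated regions were not simply nested inside the BRG1 peaks. They stayed within the peak in 37.2% (36.1 to 38.2) of the P12-only peaks, reached beyond 1 edge in 47.5% (46.4 to 48.6) and beyond both edges in 15.3% (14.5 to 16.1). For peaks of both ages the shares were 51.0% (49.1 to 53.0), 39.5% (37.5 to 41.4) and 9.53% (8.42 to 10.7). Where a P12-only peak held several regions, the unacetylated stretches between them had a median length of 261 bp (251 to 274) over 2683 gaps, with quartiles of 157 and 479 bp. In peaks of both ages it was 248.5 bp (236 to 261) over 1692 gaps. The common list itself holds no gap shorter than 101 bp.

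Since each peak was chosen for an overlap with a common region, acetylation must be more frequent inside the peak than away from it, and the decline from the midpoint describes the choice. The midpoint lay in a common region in 4624 of the 8239 peaks (56.1%, 55.0 to 57.2). At 500 bp to the left and right of it the shares were 26.6% and 26.3%, at 1000 bp 13.5% and 13.8%, and at 3000 bp 8.23% and 8.79%. Among the peaks with an unacetylated midpoint, 1020 (12.4% of all, 11.7 to 13.1) had acetylated regions on both sides within the peak and 2595 (31.5%, 30.5 to 32.5) on 1 side. In peaks of both ages, 18.2% (16.7 to 19.7) had acetylated regions on both sides of an unacetylated midpoint. One-sided acetylation was found in 18.3% (16.8 to 19.8) and an acetylated midpoint in 63.5% (61.6 to 65.4).

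**Figure D2:**
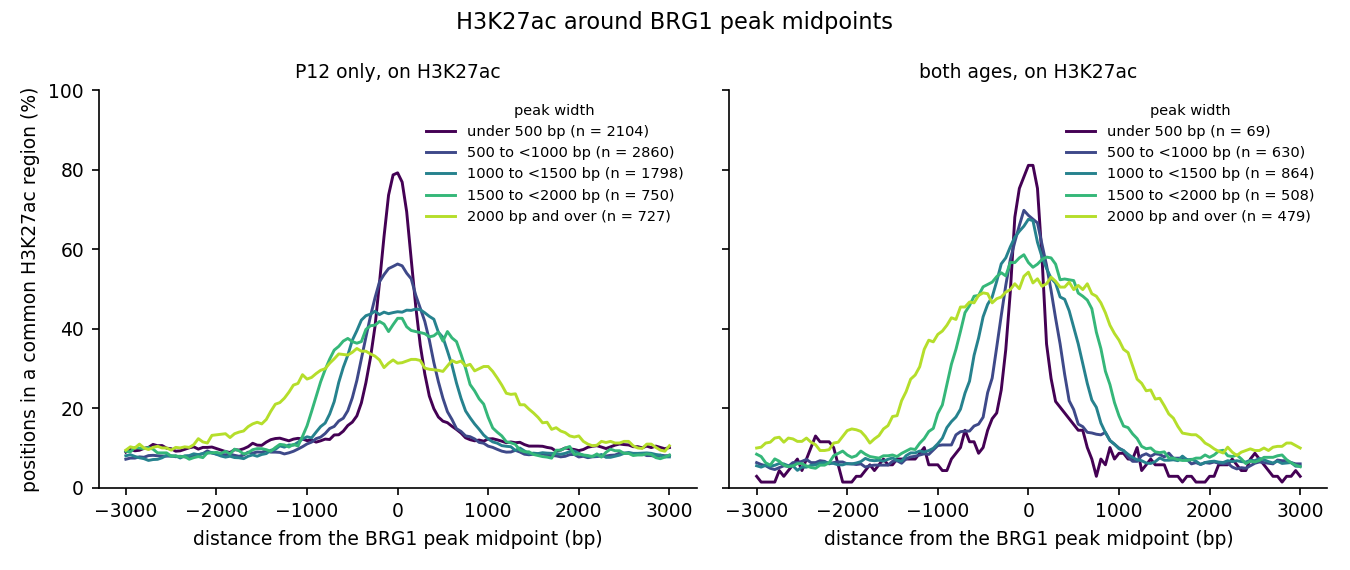
Share of positions that lay in a common H3K27ac region (vertical axis, %) against distance from the midpoint of the BRG1 peak (bp), for P12-only peaks on H3K27ac (left) and peaks of both ages on H3K27ac (right), with 1 line per class of peak width. In P12-only peaks of 2000 bp and over the line is flat and low at the centre (31.4% at the midpoint), while in peaks of both ages of that width it reaches 54.3%.

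The share of acetylated midpoints was lower in P12-only peaks than in peaks of both ages in all 5 classes of width, though not beyond the intervals in the narrowest. Among peaks of 1000 to under 1500 bp, the midpoint was acetylated in 44.3% (42.0 to 46.7) of 1798 P12-only peaks and in 67.6% (64.4 to 70.7) of 864 peaks of both ages. In that width class the P12-only share was lower on 19 of 19 autosomes, and over all widths on 18 of 19. Autosomes are parts of the same lists and not replicates, so these counts only describe the classes. At 2000 bp and over the shares were 31.4% (28.0 to 34.9) of 727 and 54.3% (49.7 to 58.8) of 479. Below 500 bp they were 79.3% (77.5 to 81.0) of 2104 and 81.2% (69.9 to 89.6) of 69, and the intervals overlapped. Strength moved with this pattern, since within 1000 to under 1500 bp the median −log10 q was 4.92 in the P12-only peaks and 7.28 in those of both ages.

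With widths held to 800 to under 1500 bp and peaks split by strength, P12-only shares stayed lower in each class that could be compared. The shares were closer than among all peaks of 1000 to under 1500 bp, but not closer than over all widths. At a −log10 q from 3 to below 5, midpoints were acetylated in 40.4% (37.4 to 43.4) of 1059 P12-only peaks and 55.3% (46.7 to 63.7) of 141 peaks of both ages. From 5 to below 7 the shares were 53.6% (50.2 to 57.0) of 862 and 61.3% (56.2 to 66.1) of 390, with overlapping intervals. At 7 and over they were 62.8% (58.4 to 67.0) of 508 and 73.8% (70.2 to 77.2) of 633. The intervals did not overlap from 3 to below 5 or at 7 and over. Below 3, only 4 peaks of both ages were in this width range, too few to compare.

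Within the P12-only peaks, midpoint acetylation first fell and then rose with strength. It was 63.3% (60.0 to 66.6) in the weakest 10%, whose median width was 399.5 bp, 47.8% (44.4 to 51.3) in the middle of the range, where median widths neared 1 kb, and 70.8% (67.5 to 73.8) in the strongest 10%, at a median width of 885 bp. Acetylated length rose from a median of 223 bp in the weakest 10% to 456 bp in the strongest.

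**Figure D3:**
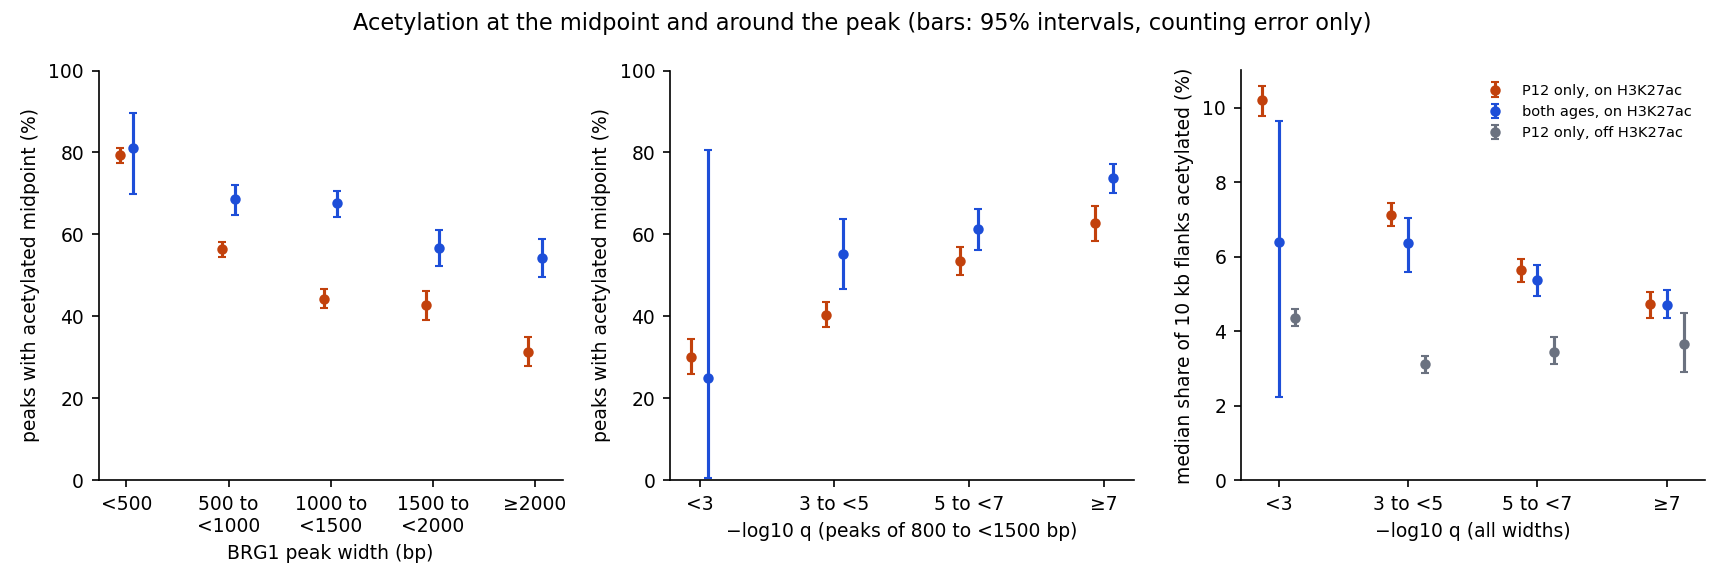
Share of peaks with an acetylated midpoint by peak width (left) and by strength within 800 to under 1500 bp (centre), and median share of the 10 kb on each side of the peak that is acetylated, by strength (right). Points are shares or medians over regions and bars 95% intervals from counting. P12-only peaks on H3K27ac have fewer acetylated midpoints than peaks of both ages from 500 bp upward, and their flanks range from 10.2% in the weakest to 4.73% in the strongest class.

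Acetylation outside the peak, which the rule did not use directly, was denser around the weaker P12-only peaks. In the 10 kb on each side of a P12-only peak on H3K27ac, a median of 7.04% (6.85 to 7.24) of the sequence was in common regions, against 5.20% (4.92 to 5.47) around peaks of both ages on H3K27ac and 3.73% (3.57 to 3.88) around P12-only peaks off H3K27ac. Part of the last contrast is set by the rule, since regions that overlap a peak can run on into its flanks and peaks off H3K27ac have no such regions. The first contrast is touched as well. Regions stayed within the peak in 37.2% of the P12-only peaks on H3K27ac and in 51.0% of the peaks of both ages on H3K27ac. How much this adds there, or to the order by strength below, was not computed. On 19 of 19 autosomes, which are parts of the same lists and not replicates, the P12-only peaks on H3K27ac had the highest median of these classes. Other common regions, beyond those in the peak, lay within 10 kb of 92.9% (92.3 to 93.4) of them, a median of 4 per peak. By strength, the acetylated share of the flanks was 10.2% (9.79 to 10.6) below a −log10 q of 3 and 4.73% (4.37 to 5.06) at 7 and over. At 7 and over, peaks of both ages had a median of 4.70% (4.37 to 5.10). From 5 to below 7 the medians were 5.66% (5.32 to 5.95) and 5.37% (4.94 to 5.79), and from 3 to below 5 they were 7.12% (6.82 to 7.45) and 6.37% (5.60 to 7.04). The intervals of the P12-only peaks and the peaks of both ages on H3K27ac thus overlapped in each of these 3 strength classes, and below 3 there were only 12 peaks of both ages.

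The P12-only peaks on H3K27ac lay closer to the next P12 peak of any class than the peaks of both ages on H3K27ac did, at medians of 14.1 kb (13.5 to 14.8) and 28.8 kb (27.05 to 30.5). P12-only peaks off H3K27ac had a median of 13.2 kb (12.5 to 13.9). Among the P12-only peaks on H3K27ac alone, the median distance to the next one was 28.5 kb (27.4 to 29.97), with quartiles of 8.59 and 87.2 kb, and 2295 of them (27.9%, 26.9 to 28.8) had another within 10 kb. That share was 17.0% when only peaks with a −log10 q of at least 3 were used and 15.0% when at least 50% of the length had to be acetylated. These settings left 6010 and 3947 peaks, and a neighbour had to be among them, which lowers the share by itself. Whether such peaks lie farther apart than as many peaks taken from the whole set was not tested. The 2295 formed 934 chains, of which 44 held 5 or more peaks. When all autosomal P12 peaks were considered, the nearest neighbour was another P12-only peak on H3K27ac for 49.2% (48.1 to 50.3), and a peak of both ages on H3K27ac for 13.8% (13.1 to 14.6). The shares of those classes among all autosomal P12 peaks were 44.9% and 13.9%.

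Against a median −log10 q of 4.25 in all P12-only peaks on H3K27ac, the 3 longest chains had medians of 2.98, 3.68 and 2.64. One at chr8:73266906-73322390 held 11 P12-only peaks on H3K27ac over 55.5 kb, with −log10 q from 2.09 to 6.78, and 28 common regions. It also contained 1 P18 peak, and a lost H3K27ac region lay beside its first peak. The next, at chr10:80855785-80896946, held 10 over 41.2 kb with −log10 q from 2.10 to 4.89, and 32.9% of its length was acetylated. The third, at chr5:125614975-125660107, held 9 over 45.1 kb with −log10 q from 2.09 to 3.76. Neither of these contained a P18 peak. In each of the 3 chains, 4 peaks were pieces that shared a deposited name with another piece, so these counts include divided peaks.

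The widest P12-only peaks spanned several acetylated regions. The widest of all, at chr5:143574417-143586422, was 12006 bp long with a −log10 q of 6.40 and held 10 common regions over 48.2% of its length. On chromosome 11, the 10743 bp peak chr11:118942293-118953035 held 7 regions (37.6% of its length), and the 8178 bp peak chr11:120091330-120099507 held 4 (13.1%). The other two of the 5 widest were at chr2:104966306-104974838 (8533 bp, 14.0% acetylated) and at chr10:80265433-80273474 (8042 bp, 35.0%). All 5 had an unacetylated midpoint with acetylation on both sides. A pair of narrower peaks also held 7 regions each, at chr5:124799185-124805727 and at chr8:73131640-73135627, and acetylation covered 51.8% and 66.8% of them.

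**Figure D4:**
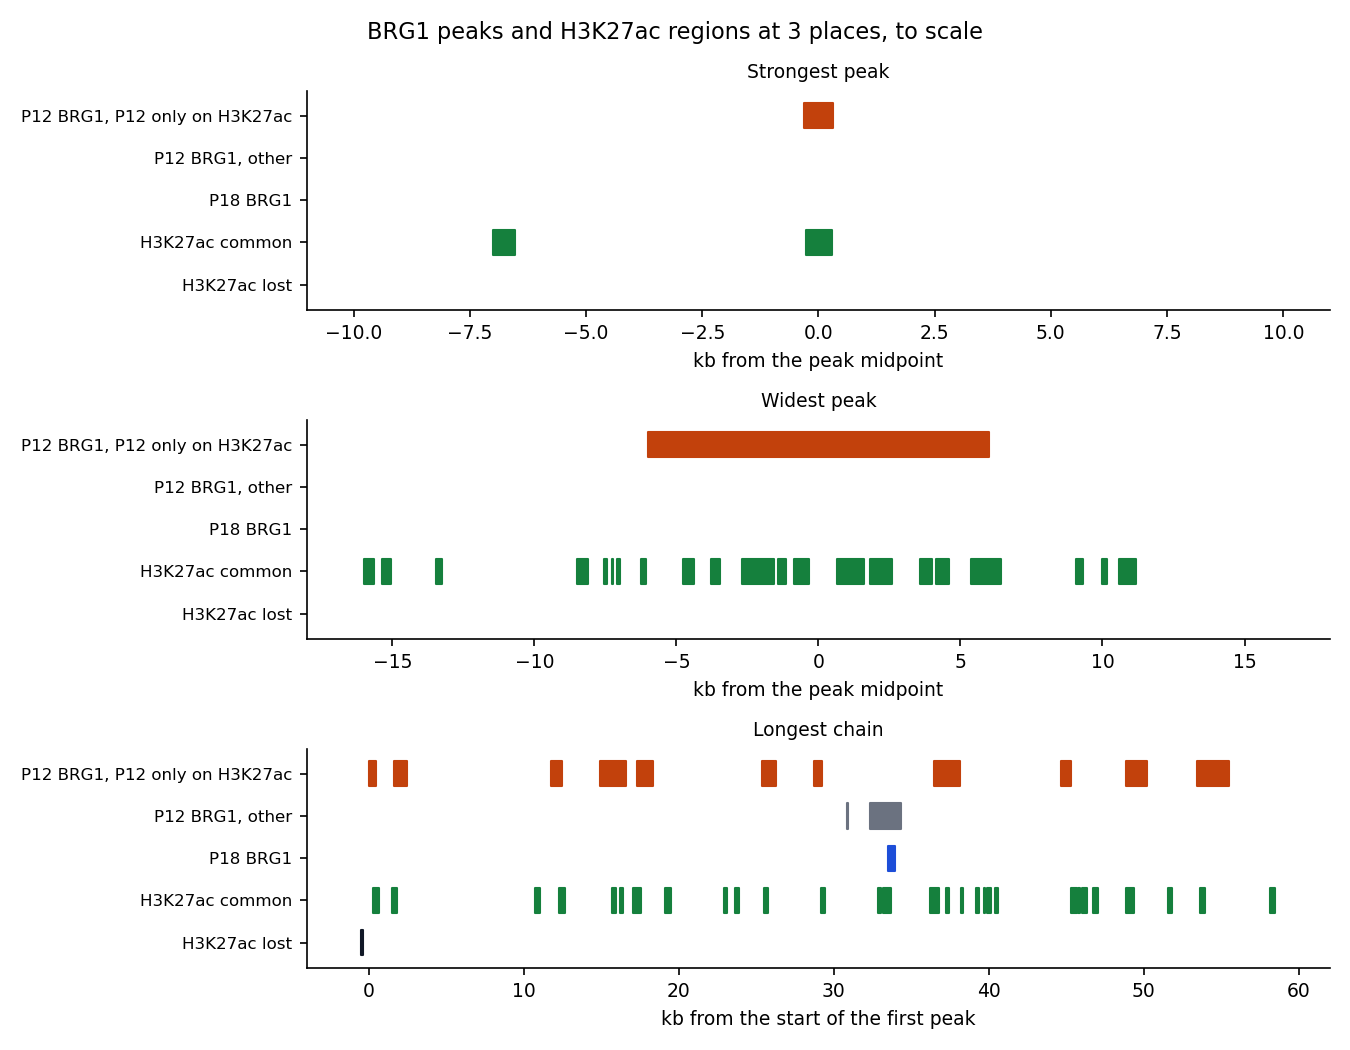
Positions of BRG1 peaks and H3K27ac regions, to scale, around the strongest P12-only peak on H3K27ac (top), the widest (middle) and the chain with the most such peaks (bottom). Horizontal axes are kb from the midpoint of the peak or from the start of the first peak, and each row is 1 kind of region. The strongest peak sits on 1 acetylated region, the widest spans 10, and the chain of 11 peaks contains 1 P18 peak.

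The rule removed every P12 peak that touched a P18 peak, and the P18 list is short, so distances to P18 peaks partly describe the choice. A P18 peak lay within 1 kb of 26 P12-only peaks on H3K27ac (0.316%, 0.206 to 0.462), within 10 kb of 498 (6.04%, 5.54 to 6.58) and within 100 kb of 3955 (48.0%, 46.9 to 49.1). For P12-only peaks off H3K27ac the share within 10 kb was 5.79% (5.26 to 6.35) and within 100 kb 41.3% (40.2 to 42.5). The median distance to a P18 peak was 107.5 kb (103.6 to 111.1). It was 104.6 kb in the weakest 10% and 129.0 kb in the strongest 10% of the P12-only peaks on H3K27ac.

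The 5 sites farthest from any P18 peak lay on 2 chromosomes, with −log10 q from 1.67 to 6.25. On chromosome 9 they were chr9:3531875-3533167 and chr9:4376580-4376847, 10099 and 9255 kb away, with −log10 q of 3.95 and 3.58. On chromosome 16 they were chr16:74411693-74412551 (9559 kb, −log10 q 4.11), chr16:76372477-76374056 (8461 kb, 6.25) and chr16:76528778-76528952 (8306 kb, 1.67). Of the 5, only the second on chromosome 9 had an acetylated midpoint.

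The knockout bears on these sites through the H3K27ac regions that the authors called gained or lost in Brg1cKO. Every site overlapped acetylation common to both genotypes by the rule, so a changed region could only occur beside that acetylation, inside the peak or outside it. The Brg1cKO suspensions may include testis cells that Mvh-cre leaves intact, so common acetylation need not come from cells without BRG1. Over all autosomal H3K27ac regions, 0.565% were called gained and 0.454% lost. A gained region was overlapped by 5 of the 8239 P12-only peaks on H3K27ac and by 13 of all 18336 autosomal P12 peaks (0.0709%). A lost region was overlapped by 3 of the 8239 and by 8 of the 18336 (0.0436%). These counts are too small for a comparison. Within 10 kb of a gained region lay 114 (1.38%, 1.14 to 1.66), against 1.29% of all autosomal P12 peaks. Within 10 kb of a lost region lay 116 (1.41%, 1.16 to 1.69), against 1.42%. Both shares were at the level of P12 peaks in general. For peaks of both ages on H3K27ac they were 1.14% (0.763 to 1.63) for gained and 1.84% (1.36 to 2.44) for lost regions, and these intervals overlapped those of the P12-only peaks. Seen from the changed regions, 103 of 955 autosomal gained regions (10.8%, 8.89 to 12.9) and 100 of 768 lost regions (13.0%, 10.7 to 15.6) had a P12-only peak on H3K27ac within 10 kb. The same share was not computed for all autosomal H3K27ac regions, so no excess or lack can be read from these values.

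The changed regions inside these peaks were 8 to 252 bp wide. Their widths were not compared with those of other gained or lost regions. The widest gained one had 252 bp. It was in the peak at chr11:118215958-118217120, 209 bp from a common region. The peak at chr17:48110688-48113277 held a gained region of 203 bp, and the peak at chr8:125842099-125843701 one of 128 bp. Gained regions of 22 and 8 bp lay in the peaks at chr2:164658642-164659040 and at chr15:89010438-89013275. Lost regions of 229 and 22 bp lay in 1 peak, at chr2:38206178-38207584. The remaining lost regions had 195 bp, in the peak at chr16:4624434-4625346, and 109 bp, in the peak at chr3:89030763-89032999. The 8 peaks had −log10 q from 2.28 to 5.17, and all of the changed regions were within 530 bp of a common region, a closeness the rule favours because each peak holds one.

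The density of P12-only peaks on H3K27ac differed between chromosomes more than their share of the P12 peaks did. Per Mb between the first and last common region of a chromosome, chromosome 11 held the most, 6.66 per Mb (791 peaks), followed by chromosome 17 with 5.00 and chromosome 7 with 4.90. Chromosome 1 held the fewest, 2.04 per Mb (395 peaks), with chromosomes 13 (2.10) and 3 (2.12) next. Chromosome 11 also had the most common H3K27ac regions, 111.4 per Mb, and chromosome 3 the fewest, 50.5. As a share of a chromosome's P12 peaks, the P12-only peaks on H3K27ac ranged from 39.0% on chromosome 12 to 49.3% on chromosome 11. Their median −log10 q ranged from 3.75 on chromosome 17 to 4.65 on chromosome 14.

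**Figure D5:**
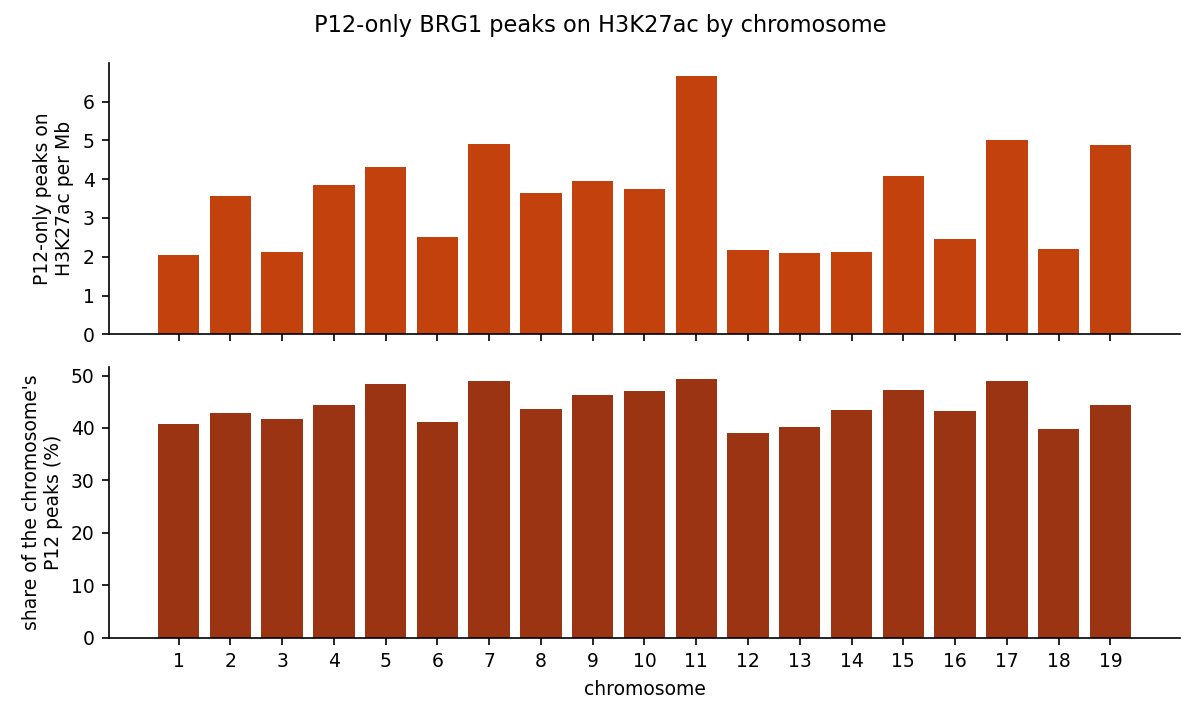
P12-only BRG1 peaks on H3K27ac per Mb of chromosome (top) and as a share of the chromosome's P12 peaks in percent (bottom), for the 19 autosomes. Density differs from 2.04 per Mb on chromosome 1 to 6.66 on chromosome 11, while the share stays between 39.0% and 49.3%.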

How the data were processed

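ChIP-seq of MNase-digested chromatin was deposited as 5 region lists in mm9. Bowtie, Bowtie2, SAMtools, Picard, deepTools 2.5.2 and MACS2 are named, without role or order, per the submitters' processing notes. Peak strength is the −log10 q that the authors deposited per BRG1 peak. All P12 names carry the mark P12B1 and all P18 names P18B2, and the way the 2 libraries were combined is not stated in these sources. Of the P12 names, 266 are carried by more than 1 peak, always with 1 −log10 q, at gaps of 1.10 to 7.17 kb. They concern 282 of the peaks described, and 21 of these have a same-named piece at a P18 peak. The score that the authors deposited for H3K27ac regions has no stated scale and was not used. The lists carry no read depth, and input and H2AK119ub1 libraries were not used here.

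Overlaps, edge-to-edge distances and midpoints were computed in Python 3.11.15 with numpy 2.4.6 and pandas 2.3.3, and checked on simulated regions. Shares carry exact Clopper-Pearson intervals (scipy 1.17.1) and medians exact order-statistic intervals, both at 95%. The peaks described, the classes and the alternatives were chosen with earlier results of these data known. Named regions are the 10 strongest, the 5 widest, the 5 farthest from a P18 peak, the 3 with the most common regions, the 3 longest chains (gaps up to 10 kb), those on gained or lost regions and the 3 on each side of each limit of the rule. Gene names and sequences were left out, since the supplied tables are on another assembly.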

Additional observations from a re-analysis of the deposited data

How the results depend on the processing

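No paired analysis was possible because each group has 1 list with no values per library, and for the same reason no replicate could be left out. Of 48 values under 6 alternatives (8 values each), 35 stayed within the interval of the value as deposited or within 1.5 times its count. With only peaks of a −log10 q of at least 3, the median −log10 q was 5.02, the median width 965 bp, the share within 10 kb of a P18 peak 5.47% and the share within 10 kb of another P12-only peak on H3K27ac 17.0%. When at least 50% of the length had to be acetylated, 3947 peaks were left, with a median width of 593 bp, an acetylated midpoint in 88.5% and a neighbour within 10 kb in 15.0%. This requirement favours narrow peaks and central acetylation by construction. Like the limit on strength, it also leaves fewer peaks that can be neighbours, which lowers the neighbour share by itself. Merging P12 peaks closer than 1 kb gave a median width of 865 bp and a neighbour share of 26.3%. Counting a P18 peak within 1 kb as found moved no value. A pair of alternatives was added after seeing the data. Joining same-named pieces gave a neighbour share of 26.7%, and leaving out peaks under 150 bp gave a median −log10 q of 4.31 and a median width of 861 bp. The shares near gained and lost regions moved under none of the 6. The depth of the P18 libraries is unknown, so absence from the P18 list means not called there.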

Other observations

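The X chromosome, which the selection left out, had similar sites: 140 of its 294 P12 peaks (47.6%, 41.8 to 53.5) lay on common H3K27ac and overlapped no P18 peak, against 44.9% of autosomal P12 peaks. A total of 201 of the autosomal sites (2.44%, 2.12 to 2.80) were narrower than 150 bp, the shortest being 1 bp long. Acetylated regions seldom joined several sites. Only 3 common regions touched more than 1 of them, each touching 2: a 1630 bp region at chr11:69526674-69528303, a 1265 bp region at chr4:124386411-124387675 and an 1147 bp region at chr6:54319310-54320456. The 6 peaks at these regions were weak, with −log10 q from 1.89 to 3.33. The widest common region at any of the sites had 39621 bp, and the fourth widest of the whole list 4177 bp.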
